A study of Mus musculus with 10 samples.

Results

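The 10 genes Afp, Ambp, Alb, Ttr, Trf, Ahsg, Fgb, Serpina1c, Apoh and Apoe encode proteins that the liver is best known for secreting into plasma. They were chosen by name among the 54532 genes of the deposited table, for a signal in GUCY2Chi libraries that GUCY2Cmed libraries lack. That signal is the contrast between the groups, so the levels of these 10 genes are given as a description, without a test. RNA was sequenced from small intestinal epithelium of 5 litter-matched Gucy2c-GFP mice, aged 10 weeks and kept on the outbred CD1/ICR background, in which the Gucy2c promoter drives the GFP reporter. Live single cells were sorted by GFP brightness alone, and 20000 cells with high fluorescence (GUCY2Chi) and 20000 with medium fluorescence (GUCY2Cmed) per mouse gave 1 library each. All 10 libraries carry the reporter, and the numbers 2, 7, 12, 14 and 15 in the labels were taken as those of the mice. GUCY2C, encoded by Gucy2c, is the intestinal receptor for guanylin peptides, and GUCY2Chi cells are the cells the study calls neuropod cells, a kind of enteroendocrine cell. In the study a majority of GUCY2Chi cells, but not all, were high in its neuropod marker Syn1. The same held for Neurog3, its marker of the enteroendocrine lineage.

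Plasma proteins carry lipids, hormones, vitamins and metals, hold proteases in check and form clots. In the adult most are made by hepatocytes, while the fetal liver and yolk sac make alpha-fetoprotein, whose gene is silenced in the liver after birth. The liver and the intestinal epithelium both arise from endoderm and share transcription factors of the forkhead and GATA families. Bulk RNA gives a mean over the sorted cells, so a few cells with much of a transcript and many cells with little cannot be told apart.

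Only Alb and Afp are neighbours in the genome. On GRCm38, Alb (ENSMUSG00000029368) spans chromosome 5 from 90460897 to 90476602 and Afp (ENSMUSG00000054932) from 90490737 to 90508907, on the same strand, with the start of Afp 14135 bases past the end of Alb. The 250 bases before the transcription start of 3 of the genes that were high in GUCY2Chi cells, and of Fgb, which was near 0 in both groups, are shown 5′ to 3′ for comparison, from RefSeq on GRCm38.p6. They are chr5:90490464-90490713 on the plus strand for Afp, chr5:90460620-90460869 on the plus strand for Alb, chr4:63154173-63154422 on the minus strand for Ambp and chr3:83049864-83050113 on the minus strand for Fgb. The span of Ambp given with the counts, 63143275 to 63154799, holds the Ambp window, so its start there differs from that of RefSeq. Capitals mark TGTTTNC on either strand, a loose form of the core of the sites of forkhead factors, in which N is any base. Read on the strand with TGTTT, this base is G in Afp, Alb and Ambp and C in Fgb.
Afp: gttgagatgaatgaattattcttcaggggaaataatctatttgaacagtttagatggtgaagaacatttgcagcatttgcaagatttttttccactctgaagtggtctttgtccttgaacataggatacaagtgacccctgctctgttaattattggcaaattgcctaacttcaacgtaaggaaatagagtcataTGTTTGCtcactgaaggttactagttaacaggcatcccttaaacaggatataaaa
Alb: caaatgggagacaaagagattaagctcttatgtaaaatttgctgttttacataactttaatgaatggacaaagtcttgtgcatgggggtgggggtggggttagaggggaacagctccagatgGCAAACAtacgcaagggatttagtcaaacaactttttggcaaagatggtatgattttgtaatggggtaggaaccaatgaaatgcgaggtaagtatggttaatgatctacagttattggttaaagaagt
Ambp: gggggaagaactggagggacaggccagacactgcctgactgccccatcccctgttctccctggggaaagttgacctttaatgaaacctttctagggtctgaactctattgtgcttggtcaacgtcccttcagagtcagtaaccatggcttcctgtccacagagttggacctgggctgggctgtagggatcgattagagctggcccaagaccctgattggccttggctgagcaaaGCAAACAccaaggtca
Fgb: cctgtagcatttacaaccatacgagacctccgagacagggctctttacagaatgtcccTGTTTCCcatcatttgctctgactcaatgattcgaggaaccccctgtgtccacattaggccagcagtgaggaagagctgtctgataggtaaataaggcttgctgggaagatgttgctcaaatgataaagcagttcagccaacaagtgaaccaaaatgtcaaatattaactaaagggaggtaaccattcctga
All 4 windows held the forkhead core once, beginning at position -55 from the RefSeq transcription start in Afp, -128 in Alb, -16 in Ambp and -192 in Fgb. Among 32851 RefSeq promoters, 17.8% had TGTTTNC in a window of this length. Of the 10 genes, 8 had promoters in that table that were searched, and 7 of them held the core. Fgb and Ahsg, with 2 and 1 counts in all, held it as well as Afp, Alb and Ambp.

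Afp and Ambp were among the most abundant transcripts of GUCY2Chi cells. Levels are cpm, read counts scaled to the size of the library after normalization by edgeR's TMM method. Afp, the fetal counterpart of albumin, had 3309 cpm in the GUCY2Chi library of mouse 2, 3930 in mouse 7, 3943 in mouse 12, 15176 in mouse 14 and 1490.5 in mouse 15. In the GUCY2Cmed libraries of the same mice it had 0.187, 1.28, 0.504, 12.2 and 3.51 cpm. The lowest GUCY2Chi library was thus far above the highest GUCY2Cmed library, and mouse 14 was highest in both groups. Afp took from 0.177% to 1.504% of all counts in GUCY2Chi cells. Its means were 5570 ± 5463 cpm (SD, n = 5) and 3.55 ± 5.03 cpm (SD, n = 5), with a fitted log2 fold change of 10.61 (standard error 1.33).

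Ambp (ENSMUSG00000028356, chromosome 4 from 63143275 to 63154799) encodes a precursor that is cut into the lipocalin alpha-1-microglobulin and the protease inhibitor bikunin. It had 1053.9, 1151, 1366, 1715 and 413 cpm in the GUCY2Chi libraries of mice 2, 7, 12, 14 and 15, and 0.468, 0.241, 0.288, 0.451 and 1.37 cpm in the GUCY2Cmed libraries. The GUCY2Chi values varied less for Ambp than for Afp, by 4.15-fold against 10.2-fold from the lowest to the highest library. Both were lowest in mouse 15 and highest in mouse 14. The means of Ambp were 1140 ± 479 cpm (SD, n = 5) and 0.563 ± 0.461 cpm (SD, n = 5), a fitted log2 fold change of 10.98 (standard error 0.65).

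Alb, the gene of the main carrier protein of adult plasma, was present in GUCY2Chi cells at a far lower level than its neighbour. It had 18.4, 21.8, 15.4, 55.7 and 5.35 cpm in GUCY2Chi cells of mice 2, 7, 12, 14 and 15. In GUCY2Cmed cells 2 libraries had no Alb count, and the others had 0.241, 0.216 and 0.601 cpm. The groups did not overlap, and mice 14 and 15 were again the highest and the lowest of the GUCY2Chi libraries. The means were 23.3 ± 19.1 cpm (SD, n = 5) and 0.212 ± 0.246 cpm (SD, n = 5), a fitted log2 fold change of 6.66 (standard error 0.84).

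**Figure D1:**
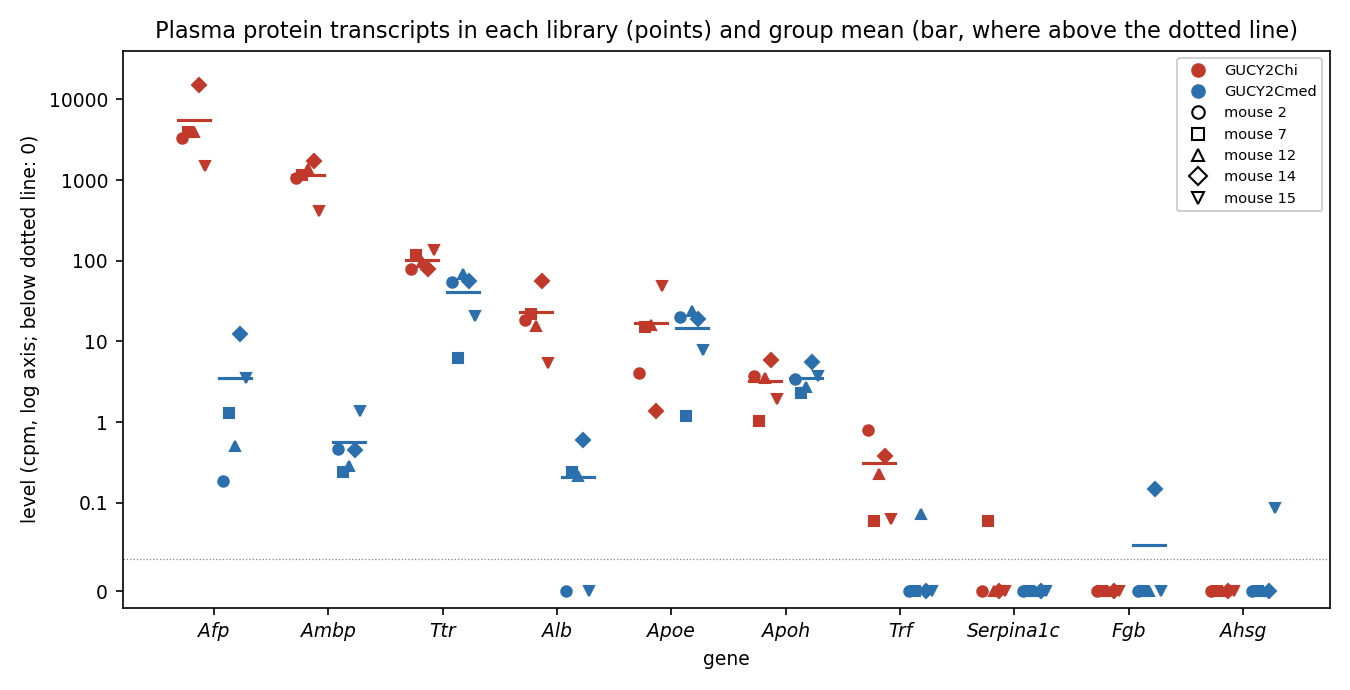
Level of each of the 10 genes in each library, in cpm on a log axis with libraries at 0 below the dotted line, GUCY2Chi in red and GUCY2Cmed in blue, with 1 symbol per mouse and a bar for the group mean. Afp, Ambp, Alb and Ttr do not overlap between the groups, with the smallest gap for Ttr, and the other 6 genes overlap or are near 0.

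The ratio of Alb to Afp reads changed little from library to library while both levels changed 10-fold. In GUCY2Chi cells there were 5.55, 5.55, 3.9, 3.67 and 3.59 Alb counts per 1000 Afp counts in mice 2, 7, 12, 14 and 15, and 4.25 over all 5 (95% interval 4.05 to 4.46, exact, counting error only). The highest ratio was that of mice 2 and 7, whose intervals reach down to 4.91, above the upper bound of 4.47 in mouse 12. The 5 libraries thus differed by more than counting error, yet by far less than either gene's level. In GUCY2Cmed cells there were 14 Alb and 229 Afp counts in all, or 61.1 per 1000 (interval 32.9 to 105). The ratio of Afp to Ambp was 3.14, 3.41, 2.89 and 3.61 in mice 2, 7, 12 and 15 and 8.85 in mouse 14. Afp, Alb and Ambp were all highest in mouse 14. There the ratio of Alb to Afp stayed within the range of the other mice, whereas Ambp was raised by less than Afp.

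**Figure D2:**
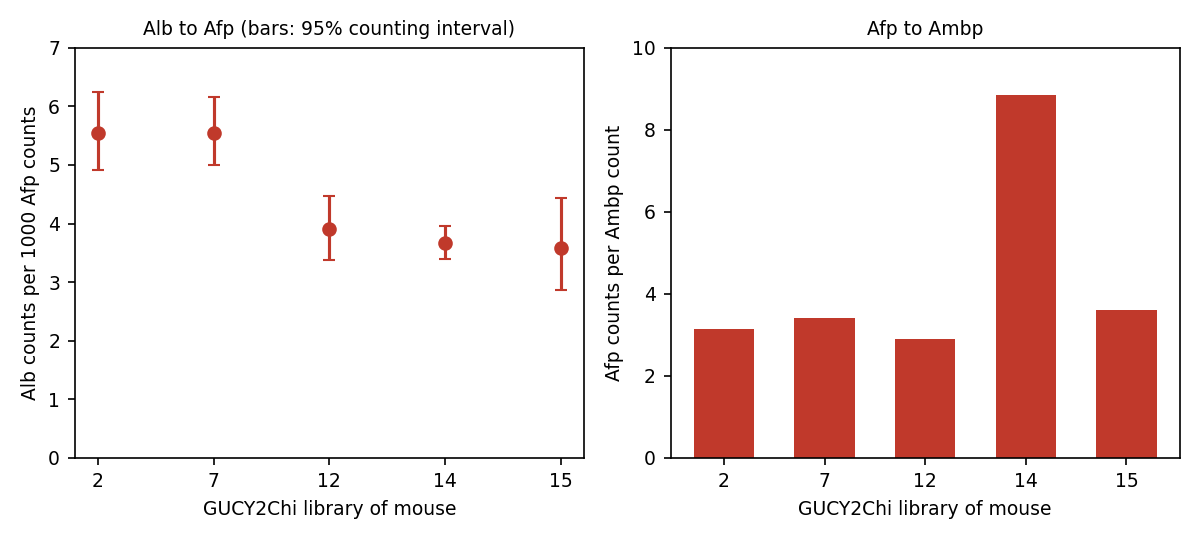
Ratios of counts within each GUCY2Chi library, Alb counts per 1000 Afp counts on the left with 95% exact intervals for counting error, and Afp counts per Ambp count on the right. The left ratio lies between 3.59 and 5.55 in all 5 libraries, and the right one between 2.89 and 3.61 except for 8.85 in mouse 14.

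No other gene around Alb and Afp passed the threshold of an adjusted p under 0.01. Afm, the gene of the vitamin E carrier afamin and the next member of the albumin family on this chromosome, had 13 counts over the GUCY2Chi libraries and 24 over the GUCY2Cmed libraries. Ankrd17 on the near side of Alb differed by 0.37 on the log2 scale (adjusted p = 0.276 by edgeR's quasi-likelihood test), and Rassf6 past Afm by 0.01 (adjusted p = 0.979). An antisense gene, Gm43449, overlaps the end of Afp and had 6 and 1 counts. Whether the counting used strand is not given in the sources used here, but its counts were few beside the 387016 of Afp.

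Ttr, the gene of transthyretin, which carries thyroxine and retinol-binding protein and is also made in the choroid plexus of the brain, was higher in GUCY2Chi cells by a smaller factor. It had 79.8, 118, 97.7, 79.9 and 135 cpm in GUCY2Chi cells of mice 2, 7, 12, 14 and 15, against 55.1, 6.26, 67.8, 56.0 and 20.8 cpm in GUCY2Cmed cells. The groups did not overlap, with 79.8 cpm as the lowest GUCY2Chi value and 67.8 cpm as the highest GUCY2Cmed value. The means were 102 ± 24.3 cpm (SD, n = 5) and 41.2 ± 26.3 cpm (SD, n = 5), a fitted log2 fold change of 1.31 (standard error 0.49).

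Ttr varied together with transcripts of forebrain neurons, which some of these libraries hold. The summed level of 10 forebrain neuron genes such as Nrgn was 30.9, 387, 359, 31.1 and 1142 cpm in GUCY2Chi cells of mice 2, 7, 12, 14 and 15, and 488, 12.3, 640, 478 and 228 cpm in GUCY2Cmed cells. In GUCY2Chi cells the 5 libraries had the same order by Ttr and by this sum. In GUCY2Cmed cells mouse 12 was highest and mouse 7 lowest by both. Where the sum was low the groups were far apart, with 79.8 and 79.9 cpm of Ttr in GUCY2Chi cells of mice 2 and 14 against 6.26 cpm in GUCY2Cmed cells of mouse 7. An alternative chosen after seeing the data took the mean log2 level of these 10 forebrain neuron genes, not their sum, as a covariate. With it the fitted log2 fold change of Ttr was 1.72.

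Markers of choroid plexus were counted beside Ttr. Of 10 such markers, 9 were tested. Folr1, Enpp2 and Lmx1a were higher in GUCY2Chi cells and Prlr was lower. That is 33.3% and 11.1%, beside 13.9% and 8.79% of all genes tested. The other 5 were not called, with log2 fold changes of 1.23 for Kl, -0.32 for Sostdc1, -0.56 for Clic6, -1.14 for Kcnj13 and -2.17 for Aqp1. The median of the 9 was -0.32. Of the 9, 2 entered the test through levels in GUCY2Chi libraries alone, which only a gene higher there could do. The summed level of the 10 was 216, 320, 237, 313 and 186 cpm in GUCY2Chi cells of mice 2, 7, 12, 14 and 15, and 269, 157, 185, 234 and 265 cpm in GUCY2Cmed cells. The groups overlapped, and mouse 15, the highest GUCY2Chi library by Ttr, was the lowest by this sum. Lmx1a, a transcription factor of the choroid plexus and also of serotonin-producing enteroendocrine cells, averaged 146 ± 67.6 cpm in GUCY2Chi and 0.507 ± 0.413 cpm in GUCY2Cmed cells (SD, n = 5 each). Their part in the level of Ttr was not tested.

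Apoe, which encodes a lipoprotein ligand made by liver, macrophages and astrocytes, did not show the signal for which the genes were chosen. It had 4.03, 14.95, 16.2, 1.39 and 48.6 cpm in GUCY2Chi cells of mice 2, 7, 12, 14 and 15, and 20.3, 1.20, 24.1, 19.2 and 7.87 cpm in GUCY2Cmed cells. The groups overlapped over nearly their whole ranges, and Apoe was higher in GUCY2Chi cells of 2 of the 5 mice. Per 100 cpm of the forebrain sum, Apoe had between 3.45 and 4.51 cpm in 8 libraries, 13.1 in GUCY2Chi cells of mouse 2 and 9.80 in GUCY2Cmed cells of mouse 7. Those 2 libraries were among the 3 with the lowest forebrain sum. The fitted log2 fold change was 0.23 (standard error 0.85) and turned to -0.62 without the GUCY2Chi library of mouse 15, to -0.07 without the GUCY2Cmed library of mouse 7, and to -1.04 without the GUCY2Chi libraries of mice 12 and 15, which hold more enterocyte RNA. Whether the Apoe reads came from forebrain RNA was not tested.

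**Figure D3:**
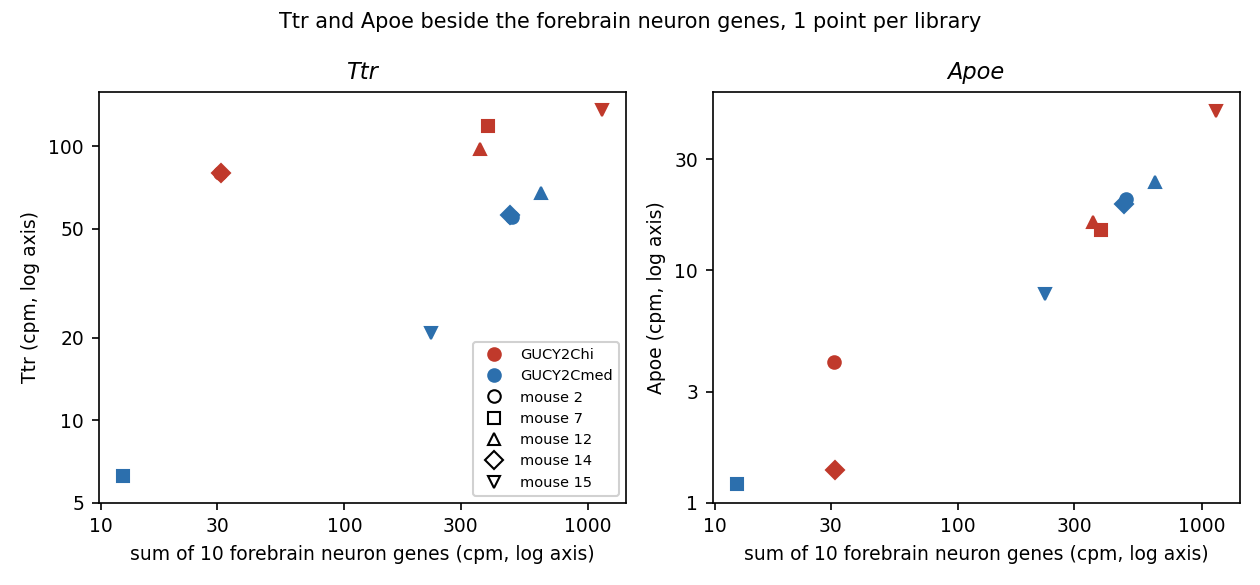
Ttr (left) and Apoe (right) in cpm against the summed cpm of 10 forebrain neuron genes, both on log axes, with 1 point per library, colored by group and shaped by mouse. Apoe lies near 1 line for both groups, whereas Ttr is higher in GUCY2Chi than in GUCY2Cmed libraries at a like forebrain level.

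The other 5 genes were low in both groups. Apoh, which encodes beta-2-glycoprotein I, a phospholipid-binding protein, had between 1.03 and 5.86 cpm in GUCY2Chi and between 2.33 and 5.56 cpm in GUCY2Cmed cells, with means of 3.22 ± 1.85 and 3.57 ± 1.25 cpm (SD, n = 5 each) and a fitted log2 fold change of -0.15 (standard error 0.44). Trf, the gene of the iron carrier transferrin, had 22 counts over the GUCY2Chi libraries and 1 over the GUCY2Cmed libraries, a ratio of 18.6 per normalized read with a 95% counting interval from 3.0 to 766. Of the 22 counts, 12 came from mouse 2.

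Serpina1c, an alpha-1-antitrypsin gene, had 1 count in all, in a GUCY2Chi library. Ahsg, the gene of fetuin-A, had 1 count and Fgb, the gene of the fibrinogen beta chain, 2 counts, all in GUCY2Cmed libraries. A group total of 3 counts, the number that 0 observed counts allow, corresponds to 0.0408 cpm in GUCY2Chi cells and 0.0484 cpm in GUCY2Cmed cells. Ahsg, Fgb and Serpina1c were thus not detectable above this floor in either group.

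A gene was tested if 3 or more libraries exceeded 0.5 cpm. Of the 10 genes, 6 passed this filter and Trf, Ahsg, Fgb and Serpina1c did not. In 4 of the 10, Afp, Ambp, Alb and Ttr, every GUCY2Chi library was above every GUCY2Cmed library, which held for 16.7% of the 15703 genes tested. For 3 of them the fitted fold change was called by the threshold used for the other genes here, an adjusted p under 0.01, which called 13.9% of genes as higher and 8.79% as lower in GUCY2Chi cells. Scaling by library size alone, without TMM, called 2910 genes higher and 557 lower in place of 2186 and 1381. Since the genes were picked on this contrast, nothing is read from these counts. By the values, the label of a GUCY2Chi signal holds for Afp, Ambp and Alb. It holds in part for Ttr and, on few counts, for Trf, and the groups overlap for Apoh and Apoe. Ahsg, Fgb and Serpina1c were too low to compare.

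Divided by gene length, the levels of GUCY2Chi cells ran in the order Afp, Ambp, Ttr, Alb, Apoe, Apoh and Trf, and the authors' FPKM values gave the same order. Afp had 1654 ± 1622 cpm per kilobase (SD, n = 5) and Ambp 809 ± 340. Their ranges overlapped, although Afp was above Ambp in every library. Ttr followed with 83.8 ± 19.95, below the lowest Ambp library at 293 and above the highest Alb library at 23.8. The levels per kilobase of Alb, 9.95 ± 8.15, and of Apoe, 7.96 ± 8.79, did not differ beyond their spread, and neither did those of Apoe and Apoh, 2.02 ± 1.16. Among the 15703 genes tested, Afp was 32nd and Ambp 56th by level per kilobase in GUCY2Chi cells, Ttr 671st and Alb 3830th.

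Markers of enteroendocrine cells and enterocytes followed the sort, and those of tuft, goblet and Paneth cells did not. For 10 genes of tuft, goblet and Paneth cells the sum was between 6522 and 36124 cpm in GUCY2Chi libraries. In GUCY2Cmed libraries it was between 6500 and 14618 cpm, and none of the 10 genes was called. The summed level of 14 enteroendocrine genes was between 8652 and 67070 cpm in GUCY2Chi and between 95.5 and 397 cpm in GUCY2Cmed libraries. Of the 14, 13 were higher at an adjusted p under 0.01 (92.9%, beside 13.9% of all genes tested). Through GUCY2Chi libraries alone, 2 of the 14 passed the filter on low counts. As a percentage of the GUCY2Cmed library, the sum of 12 enterocyte genes in the GUCY2Chi library was 8.48% in mouse 2, 9.48% in mouse 7 and 9.41% in mouse 14, but 43.4% in mouse 12 and 40.6% in mouse 15. The GUCY2Chi library of mouse 15, with the lowest Afp, Ambp and Alb, also had the lowest enteroendocrine sum. Per 100 cpm of that sum, Afp had 5.73, 5.905, 14.04, 22.6 and 17.2 cpm in mice 2, 7, 12, 14 and 15, so its level spread by 3.95-fold in place of 10.2-fold. The spread was 2.81-fold in place of 4.15-fold for Ambp and 2.61-fold in place of 10.4-fold for Alb, whereas that of Ttr was 13.1-fold in place of 1.69-fold. Total counts per library were between 10903958 and 15307932, so that a library with no count of a gene allows at most 0.181 to 0.281 cpm.

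The share left in GUCY2Cmed cells differed between the genes. The Afp level of GUCY2Cmed cells was between 0.00566% and 0.235% of that in GUCY2Chi cells of the same mouse, and that of Ambp between 0.0209% and 0.332%. The lowest shares rest on 2 Afp counts in mouse 2 and 3 Ambp counts in mouse 7. For the enteroendocrine sum the share was larger in every mouse, between 0.144% and 2.64%. Alb had no count in GUCY2Cmed cells of mice 2 and 15, which allows up to 0.281 and 0.257 cpm. Its share was 1.1%, 1.41% and 1.08% in mice 7, 12 and 14, on 3, 3 and 8 counts. These values were above the enteroendocrine sum in mice 7 and 14, and the group mean of Alb was 0.907% against 0.647% for that sum. With so few counts, whether the share of Alb differed from that of the enteroendocrine sum cannot be told. The share of Ttr was between 5.3% and 70.1%. Mouse 15 had the highest share for Afp, for Ambp and for the enteroendocrine sum.

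The genes nearest to Afp and Ambp in pattern are given as a description. Nearness was the root mean square difference over the 10 libraries between log2(cpm + 0.5) values centered on each gene's mean, among 9977 genes with at least 5 cpm on average. The difference between the groups, for which Afp and Ambp were chosen, makes up most of this measure, so that genes much higher in GUCY2Chi cells had to come first. Gpx3, a secreted glutathione peroxidase, was nearest to both, at 0.94 from Afp and 0.48 from Ambp. After Gpx3 came Ambp, Pyy, Tph1 and Gcg for Afp, and Rbp4, Tph1, Pyy and Sct for Ambp. Pyy, Gcg and Sct encode gut hormones and Tph1 an enzyme of serotonin synthesis. Gpx3 had 3644 cpm in GUCY2Chi and 3.82 cpm in GUCY2Cmed cells. Alb was 123rd from Afp and 143rd from Ambp.

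To see whether other plasma protein genes were present, 101 genes in 6 lists were counted. Of these, 52 passed the filter, and 22 were higher and 2 lower in GUCY2Chi cells at an adjusted p under 0.01 by edgeR's quasi-likelihood test. That is 42.3% higher and 3.85% lower, beside 13.9% and 8.79% of all genes tested. The median log2 fold change of the 52 was 1.52, or 1.27 with 3 genes that had no GUCY2Cmed count set at their lower bounds, and that of all genes tested 0.09. Of the 52, 10 passed the filter through GUCY2Chi libraries alone, which only a gene higher there could do, and 1 through GUCY2Cmed libraries alone. Of all 15703 genes tested, 914 and 38 did so. The lists were also chosen with earlier results of these data known, so the shares are a description and were not tested against those of all genes. Taking the mouse as replicate block, 17 of the 22 higher calls were kept in edgeR and 20 in limma-voom, and of the 2 lower calls 0 and 1. Without the GUCY2Chi libraries of mice 12 and 15, 24 genes were higher and 9 lower. Leaving out the GUCY2Chi library of mouse 12 or of mouse 15 alone gave 4 and 6 lower.

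Among 14 carriers, 4 were tested and 3 were higher (75.0%, beside 13.9% of all genes tested). Of the 4, 1 passed the filter through GUCY2Chi libraries alone. Rbp4, the gene of the retinol carrier that circulates bound to transthyretin, had the largest change, with 1284 ± 549 cpm (SD, n = 5) in GUCY2Chi and 1.38 ± 0.712 cpm (SD, n = 5) in GUCY2Cmed cells (log2 fold change 9.87, standard error 0.54, adjusted p = 1.72e-06). Its level was between 648 and 1999 cpm in the GUCY2Chi libraries and at most 2.25 cpm in the others. Hpx, which encodes the heme carrier hemopexin, had 6.38 ± 2.71 against 0.150 ± 0.336 cpm (log2 fold change 5.26, adjusted p = 0.00197). Orm3, of the orosomucoid family, had no GUCY2Cmed count and was at least 1.99-fold higher, against a floor of 3 counts per library. Each library was also left out in turn, in 10 leave-one-out fits. Orm3 was called in 2 of them, without the GUCY2Chi library of mouse 12 or 15, could not be tested in 3 and had an adjusted p of up to 0.0141 in the rest, and under the replicate block in edgeR it reached 0.0597. Selenop, which carries selenium, had 3156 ± 1319 against 5774 ± 2826 cpm (adjusted p = 0.128). The other 10 were too low to test. Chosen after their values were seen, Gc, Serpina7 and Fetub had 30, 27 and 21 counts in GUCY2Chi libraries and none in the others, whereas the haptoglobin gene Hp had 1 and 4.

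Among 19 protease inhibitors and bikunin partners, 8 were tested and 5 were higher (62.5%, beside 13.9% of all genes tested). Of the 8, 4 passed the filter through GUCY2Chi libraries alone, which only a gene higher there could do. Serpinf2, the gene of alpha-2-antiplasmin, had 206 ± 98.2 cpm (SD, n = 5) against 2.27 ± 0.778 cpm (log2 fold change 6.49, adjusted p = 3.76e-06). Pzp, an alpha-2-macroglobulin relative, had 53.5 ± 33.6 against 0.0914 ± 0.0780 cpm (adjusted p = 1.08e-05), and Serping1, the gene of the C1 inhibitor, 10.4 ± 4.52 against 0.411 ± 0.292 cpm (adjusted p = 0.000259). Serpina1b had 25.0 ± 17.7 against 0.360 ± 0.282 cpm (adjusted p = 0.000232), and Serpina1a had no GUCY2Cmed count and was at least 7.35-fold higher. Serpina1a passed (adjusted p = 0.00533) but was called in only 3 leave-one-out fits, those without the GUCY2Chi library of mouse 12 or 15 or the GUCY2Cmed library of mouse 7, with an adjusted p of up to 0.0138 in the others, and neither with the replicate block in edgeR (0.0205) nor by limma-voom. Serpina1a to Serpina1e are near-identical copies among which the counting could have shared or dropped reads, so their split, and the near absence of Serpina1c, are uncertain. The heavy chains to which bikunin is bound, Itih1 to Itih4, had 29, 0, 33 and 0 counts in GUCY2Chi and 0, 4, 6 and 0 in GUCY2Cmed libraries, too few to test.

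Among 18 genes of coagulation and fibrinolysis, 10 were tested and 6 were higher, and the partners of Fgb were near 0. That is 60.0% higher, beside 13.9% of all genes tested, and 3 of the 10 passed the filter through GUCY2Chi libraries alone. Cpb2, which encodes an inhibitor of clot lysis, had 94.0 ± 51.8 cpm (SD, n = 5) against 2.002 ± 0.758 cpm (log2 fold change 5.54, adjusted p = 2.23e-05). F2, the prothrombin gene, had 35.0 ± 14.7 against 0.0964 ± 0.0883 cpm (adjusted p = 5.2e-06), and F12 12.1 ± 6.53 against 0.0525 ± 0.0821 cpm (adjusted p = 3e-05). Pros1, F5 and F13b were also higher, by 1.65, 3.35 and 3.50 on the log2 scale (adjusted p = 0.00102, 0.00198 and 0.0069). F13b was called in 3 leave-one-out fits, without the GUCY2Chi library of mouse 7 or 12 or the GUCY2Cmed library of mouse 7, could not be tested in 3, and reached an adjusted p of 0.0177 in the rest and 0.0434 with the replicate block in edgeR. The other fibrinogen chains, Fga and Fgg, had 9 and 0 counts in GUCY2Chi and 1 and 4 in GUCY2Cmed libraries, and F9, F11, Kng1 and Kng2 had none.

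Apolipoproteins moved in both directions. Of 14 genes, 9 were tested, and Apoa5 and Apom were higher and Apob lower. That is 22.2% and 11.1%, beside 13.9% and 8.79% of all genes tested, and 1 of the 9 passed the filter through GUCY2Chi libraries alone. Apoa5, which acts on triglyceride clearance, had 21.8 ± 17.4 cpm (SD, n = 5) against 0.211 ± 0.218 cpm (log2 fold change 6.71, adjusted p = 0.000128), and Apom, a carrier of sphingosine 1-phosphate, 7.48 ± 5.30 against 0.0674 ± 0.0717 cpm (adjusted p = 0.000223). Apob, the scaffold of chylomicrons, had 94.6 ± 38.8 against 467 ± 296 cpm (log2 fold change -2.30, adjusted p = 0.00232), a call lost with the replicate block in edgeR (0.0127). The enterocyte transcripts Apoa1 and Apoa4 had 5754 ± 6273 and 912 ± 1005 cpm against 25147 ± 4207 and 5395 ± 2209 cpm, and did not pass the threshold (adjusted p = 0.0466 and 0.0232).

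Complement genes were mostly low. Of 18, 11 were tested and 1 was called, Hc, the gene of component C5, with 1.27 ± 1.23 cpm (SD, n = 5) in GUCY2Chi and 0.0187 ± 0.0419 cpm in GUCY2Cmed cells (adjusted p = 0.00264). Leaving out libraries, it lost the call without the GUCY2Cmed library of mouse 2 (adjusted p = 0.0114) and could not be tested without the GUCY2Chi library of mouse 2, 7 or 14. With the replicate block in edgeR it was not called (0.0107). C3, the central component, averaged 0.198 ± 0.137 cpm in GUCY2Chi and 0.471 ± 0.468 cpm in GUCY2Cmed cells (adjusted p = 0.323). The median of the 11 was -0.41 on the log2 scale. The 1 call is 9.09% of the 11, beside 13.9% of all genes tested that were higher. Of the 11, 1 passed the filter through GUCY2Chi libraries alone and 1 through GUCY2Cmed libraries alone.

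Of 18 genes of acute phase proteins, liver hormones and their binding proteins, 10 were tested, and 5 were higher and 1 lower. That is 50.0% and 10.0%, beside 13.9% and 8.79% of all genes tested. Crp, the C-reactive protein gene, had 61.0 ± 18.8 cpm (SD, n = 5) against 1.47 ± 0.914 cpm (log2 fold change 5.37, adjusted p = 7.85e-06), and its relative Apcs 10.6 ± 6.75 against 0.255 ± 0.230 cpm (adjusted p = 0.000639, not called by limma-voom). Igfbp4 and Igfbp2, which encode binding proteins of insulin-like growth factors, rose by 2.07 and 3.53 on the log2 scale (adjusted p = 0.000374 and 0.00252). Agt, the angiotensinogen gene, rose by 2.30 (adjusted p = 0.00371), a call lost without the GUCY2Cmed library of mouse 14 (0.0109) and with the replicate block (0.024 in edgeR). Thpo, the thrombopoietin gene, fell by 1.58 (adjusted p = 0.00663), a call kept in 2 leave-one-out fits, without the GUCY2Chi library of mouse 12 or 15, with an adjusted p of up to 0.0212 in the others and of 0.0252 with the block. The hormone gene Hamp, which encodes the iron regulator hepcidin, was too low to test and had 33 counts in GUCY2Chi and 0 in GUCY2Cmed libraries, a value chosen after it was seen.

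**Figure D4:**
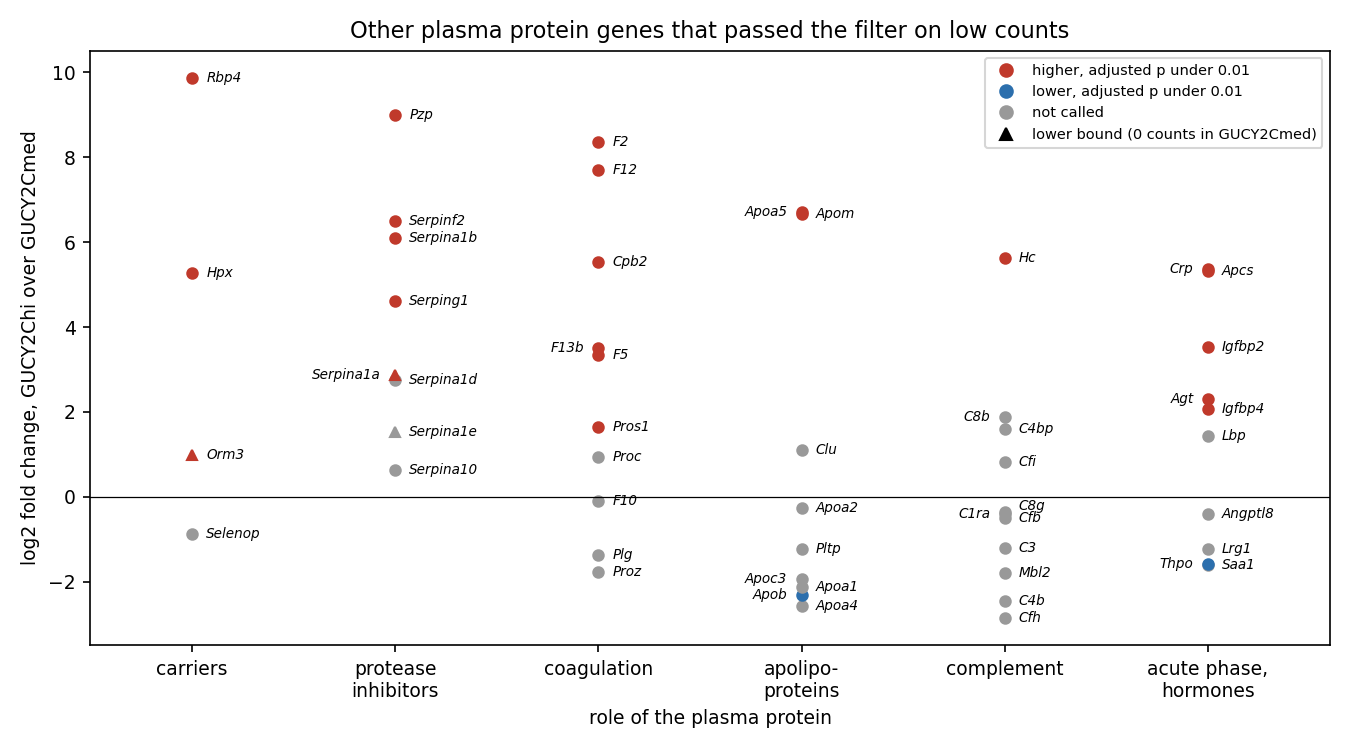
Log2 fold change of GUCY2Chi over GUCY2Cmed for the 52 other plasma protein genes that passed the filter, in 6 columns by role, with 22 genes called higher in red, 2 called lower in blue and 28 not called in gray. Triangles mark 3 genes without a GUCY2Cmed count, drawn at their lower bound. The genes called higher reach up to 9.87 for Rbp4, and more complement genes lie below 0 than above.

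Of 25 genes that act inside hepatocytes or in their membrane, 19 were tested, and 5 were higher and 5 lower. That is 26.3% in each direction, beside 13.9% higher and 8.79% lower of all genes tested, and the median log2 fold change of the 19 was -1.61. Of the 19, 1 passed the filter through GUCY2Chi libraries alone. Hpd had 36.0 ± 24.1 cpm (SD, n = 5) against 8.01 ± 2.04 cpm (adjusted p = 0.00451), a call kept in 3 leave-one-out fits, without the GUCY2Chi library of mouse 12 or 15 or the GUCY2Cmed library of mouse 7, with an adjusted p of up to 0.0127 in the others and of 0.0193 with the replicate block in edgeR, and not made by limma-voom. Chosen after their values were seen, the other 4 higher genes were Arg1, Tat, Tdo2 and Uox, enzymes of arginine, tyrosine, tryptophan and urate breakdown. Arg1 had 32.0 ± 18.2 against 0.882 ± 0.499 cpm (adjusted p = 0.000151), and the means of the other 3 were between 6.38 and 8.82 cpm in GUCY2Chi cells. Tat passed at 0.00107 and was lost with the block in edgeR (0.0107), and Uox passed at 0.000896 and was not called by limma-voom. The urea cycle genes Cps1 and Otc, also expressed by enterocytes, were lower, with log2 fold changes of -1.69 and -2.19 (adjusted p = 0.00334 and 0.0037), as were Fbp1 and Adh1, enzymes of gluconeogenesis and of alcohol oxidation, with -1.61 and -1.29 (0.00335 and 0.00614).

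None of these 4 lower calls passed every leave-one-out fit. Cps1 lost it without the GUCY2Cmed library of mouse 15 (adjusted p = 0.0108). Otc and Fbp1 each lost it in 4 fits, with adjusted p of up to 0.0149 and 0.0141, both without the GUCY2Chi library of mouse 2 and the GUCY2Cmed libraries of mice 12 and 15, Otc also without the GUCY2Cmed library of mouse 2 and Fbp1 without the GUCY2Chi library of mouse 14. Adh1 kept it only without the GUCY2Chi library of mouse 12 or the GUCY2Cmed library of mouse 2 (up to 0.0216). With the replicate block in edgeR, Otc and Fbp1 were kept. The other 6 genes of the list were too low to test, and 3 of them are given here, chosen after their values were seen. Slc10a1, the bile acid uptake carrier, had 9 counts in GUCY2Chi and 20 in GUCY2Cmed libraries, Cyp7a1, the rate-limiting enzyme of bile acid synthesis, 0 and 1, and Cyp8b1 2 and 4. Others of the list, which enterocytes also express, were abundant in both groups, with 892 ± 914 against 4195 ± 350.3 cpm for Cyp3a11 and 921 ± 1066 against 4316 ± 731 cpm for Fabp1 (SD, n = 5 each, adjusted p = 0.0229 and 0.0492). The part of hepatocyte RNA in the plasma protein signal was not tested.

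Genes of other tissues that make plasma proteins were also counted, where 13.9% of all genes tested were higher and 8.79% lower. Of 10 genes of fetal liver and yolk sac, 5 were tested and Dlk1, Cited1 and Peg3 were higher (60.0%), with log2 fold changes from 3.55 to 5.08. The summed level of the list overlapped between the groups (267 to 465 against 272 to 466 cpm). Of 14 pancreas genes, 4 were tested, 1 of them through GUCY2Chi libraries alone, and 3 were higher (75.0%). Of these, Iapp, a hormone of beta cells that some enteroendocrine cells share, had 111 ± 51.4 cpm (SD, n = 5) against 0.445 ± 0.385 cpm (adjusted p = 5.2e-06). The pancreatic genes Cpa1, Prss2 and Amy2a5 had no count in any library. Of 10 macrophage genes, 6 were tested and C1qa was higher (16.7%), at 47.7 ± 37.8 against 0.692 ± 0.500 cpm (adjusted p = 0.000126). The other 5 were not called. C1qb, C1qc and Lyz2 had 0.594 against 0.586, 0.672 against 0.450 and 3.50 against 1.26 cpm. Cd68 and Cd14 had 1.02 against 1.27 and 15.5 against 42.1 cpm. No astrocyte gene of 9 tested and no forebrain neuron gene of 10 passed the threshold, and 1 of 7 oligodendrocyte genes, Mag, did. The part of these cells in the plasma protein signal was not tested.

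Transcription factors of hepatocyte genes were present in both groups, and the forkhead factors were higher in GUCY2Chi cells. Of 20 listed, 19 were tested, 5 were higher and 5 lower, or 26.3% in each direction beside 13.9% and 8.79% of all genes tested. Foxa1, which opens chromatin at liver and gut enhancers, had 82.8 ± 31.2 cpm (SD, n = 5) against 6.86 ± 1.42 cpm (log2 fold change 3.59, standard error 0.32, adjusted p = 2.14e-05). Foxa3 had 98.3 ± 31.2 against 34.9 ± 11.5 cpm (log2 fold change 1.49, adjusted p = 0.00145, and 0.0122 with the replicate block in edgeR). Outside the naming rule, and chosen after their values were seen, Foxa2, Prox1 and Zbtb20 rose by 3.25, 4.79 and 1.98 (adjusted p = 0.000295, 9.12e-05 and 0.000656). All 5 of these genes were called in each of the 10 leave-one-out fits.

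Zbtb20 encodes a repressor that silences Afp in the liver after birth, and was higher where Afp was high, at 26.005 ± 11.1 against 6.61 ± 1.46 cpm. The other known postnatal repressors of Afp were not called, with 1.93 ± 0.572 against 2.39 ± 0.476 cpm for Zhx2 (adjusted p = 0.491) and 3.14 ± 0.671 against 1.73 ± 1.02 cpm for Zfhx3 (adjusted p = 0.144). Hnf4a, chosen after its values were seen, had 111 ± 18.8 against 135 ± 31.9 cpm and a log2 fold change of -0.28 (adjusted p = 0.292). Hnf4g, Cebpb, Gata4 and Gata6 were lower, with log2 fold changes of -2.16, -1.83, -0.85 and -0.62 (adjusted p = 0.00325, 0.00128, 0.00541 and 0.0089), and the fifth was Nr5a2 (0.00827). Of these 5, Cebpb was called in all 10 leave-one-out fits and Gata6 in none (adjusted p from 0.0121 to 0.0394). Hnf4g lost the call without the GUCY2Chi library of mouse 2 or the GUCY2Cmed library of mouse 15 (up to 0.0126), Nr5a2 kept it only without the GUCY2Chi library of mouse 12 or 15 (up to 0.027), and Gata4 only without the GUCY2Chi library of mouse 12 or the GUCY2Cmed library of mouse 7 or 12 (up to 0.0207). With the replicate block in edgeR, Hnf4g and Cebpb were kept, and Gata4, Gata6 and Nr5a2 had adjusted p of 0.0236, 0.0242 and 0.0296.

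**Figure D5:**
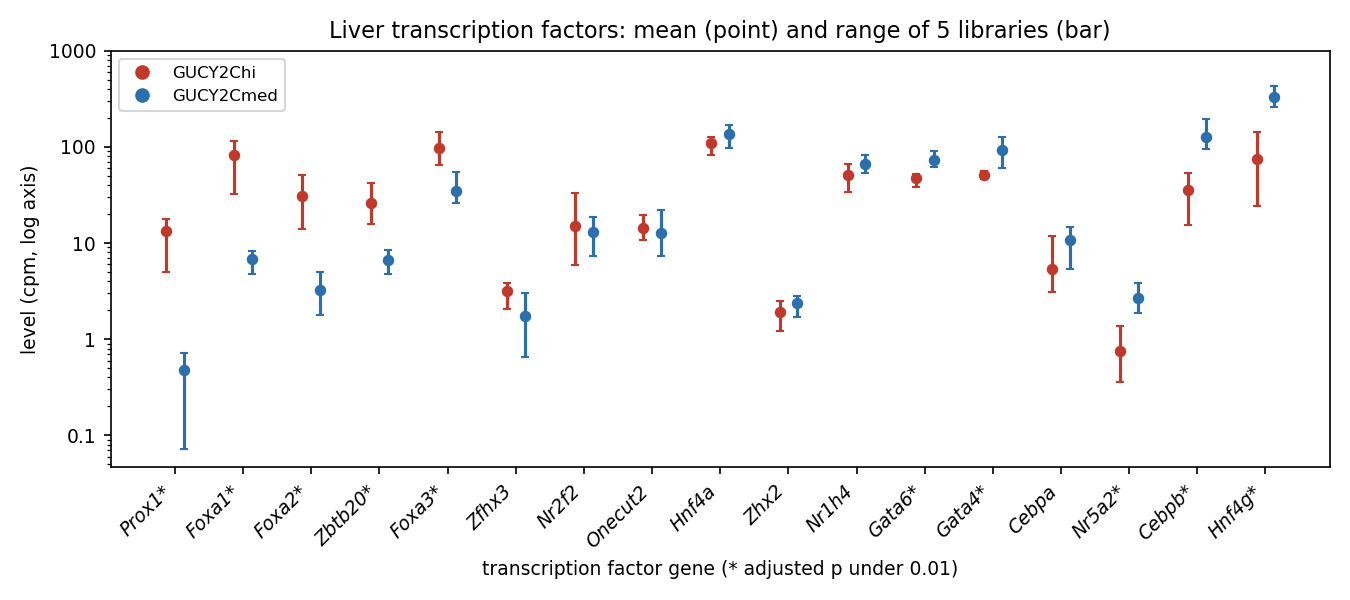
Mean level (point) and range over 5 libraries (bar) of tested transcription factor genes in cpm on a log axis, GUCY2Chi in red and GUCY2Cmed in blue, in order of fold change, with an asterisk at an adjusted p under 0.01. Prox1, Foxa1, Foxa2, Zbtb20 and Foxa3 do not overlap between the groups, and the ranges of Hnf4a do.

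Receptors that take up plasma proteins were also counted. Of 13 listed, 11 were tested, and 4 were higher, 2 lower and 5 not called, or 36.4% higher and 18.2% lower beside 13.9% and 8.79% of all genes tested. Of the 11, Asgr1 and Asgr2 passed the filter through GUCY2Chi libraries alone, which only a gene higher there could do. The same held for 914 of all 15703 genes tested. With the replicate block in edgeR, 1 of the 4 higher and both lower calls were kept. Vldlr and Lrp8, receptors of apolipoprotein E, rose by 2.33 and 1.53 on the log2 scale (adjusted p = 0.000661 and 0.00229, the second 0.011 with the replicate block in edgeR). Asgr1, a subunit of the asialoglycoprotein receptor that clears plasma glycoproteins in the liver, had 6.61 ± 3.76 cpm (SD, n = 5) against 0.157 ± 0.181 cpm (adjusted p = 0.000554, and 0.0102 with the block). Its partner Asgr2 had no GUCY2Cmed count and was at least 5.10-fold higher (adjusted p = 0.000661, and 0.0244 with the block). Tfrc, the transferrin receptor, had 19.9 ± 9.58 against 63.6 ± 8.76 cpm and fell by 1.68 (adjusted p = 0.00134), and Lrp1 fell by 1.39 (adjusted p = 0.000712).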

How the data were processed

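RNA of 10 libraries, GUCY2Chi and GUCY2Cmed cells of 5 mice, was compared. The gene-level count table deposited by the authors holds unnormalized whole numbers that the sequencing provider made after alignment with STAR. The counting program, its version and its strand setting are not given in the sources used here. FPKM values deposited by the authors are scaled by gene length and depth and were used only for the order of levels. Columns and tables of the authors' own comparisons hold fold changes and p-values and were not used. The labels name mm9, but gene symbols matched by position in GRCm38 for 99.9% of 37624 and in NCBIM37 (mm9) for 9.66% of 28329, so positions are on GRCm38.

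Counts were analyzed in edgeR 4.0.16 (R 4.3.3), with DESeq2 1.42.0 and limma 3.58.1 for alternatives. Python 3.11.15 was used for summaries (numpy 2.4.6, pandas 2.3.3) and intervals (scipy 1.17.1), and matplotlib 3.10.9 for plots. Genes that exceeded 0.5 cpm in 3 or more libraries were tested with edgeR's quasi-likelihood test, TMM factors, no term for the mouse, and an adjusted p under 0.01 (Benjamini-Hochberg over all genes tested), and the scripts were tested on simulated data. P-values measure the spread between the libraries within each group. Without a term for the mouse they do not measure the spread of the difference within mice. The 10 genes and the 21 lists were chosen with earlier results of these data known. In each list at most 6 called genes were named, those highest by mean cpm, with others named as such, and the 5 genes nearest in pattern to Afp and to Ambp were named. Folds of genes without a count in 1 group are lower bounds against 3 counts per library. Intervals and floors cover counting error only. Some genes of the lists are counted in the totals but are not reported here.

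The numbers in the labels were taken as mice, so that same-numbered libraries share an animal, and the number was used as a replicate block in an alternative. The correlations of deviations from the group means within these pairs were -0.074, -0.173, 0.27, -0.101 and 0.05 for mice 2, 7, 12, 14 and 15. Alternatives were DESeq2, limma-voom, RLE factors, library size without TMM, other filters on low counts, the replicate block and each library left out. Left out as a pair after seeing the data were the GUCY2Chi libraries of mice 12 and 15. Also after seeing the data, the mean log2(cpm + 0.5) of the 10 forebrain neuron genes was added as a covariate.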

Additional observations from a re-analysis of the deposited data

Results flagged for a closer look

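In 88 groups of 5 libraries checked, 6 held a library far from the other 4 (Dixon's test at 95%), where chance flags about 1 in 20 groups. Afp in GUCY2Chi cells of mouse 14 was 15176 cpm, against 1490.5 to 3943 cpm in the other mice, and the GUCY2Cmed library of the same mouse had 12.2 cpm, against 0.187 to 3.51 cpm. Ambp in GUCY2Cmed cells of mouse 15 was 1.37 cpm, against 0.241 to 0.468 cpm. Hpx in GUCY2Cmed cells was 0.751 cpm in mouse 14 and 0 in the others. Foxa3 in GUCY2Cmed cells of mouse 15 was 55.0 cpm, against 26.03 to 32.4 cpm. Adh1 in GUCY2Cmed cells of mouse 7 was 7654 cpm, against 3408 to 4390 cpm.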

How the results depend on the processing

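The fitted fold changes of Afp, Ambp, Alb and Ttr kept their sign under every alternative run, and those of Apoe and Apoh, which were near 0, did not. Counts of calls moved as follows, and the cause was not tested. Of all genes, 1294 were higher and 779 lower with the mouse as replicate block in edgeR, against 2186 and 1381 without it, and the lower were 2235 with DESeq2, 557 with library size without TMM and 2186 without the GUCY2Chi libraries of mice 12 and 15. Without TMM the median of all genes was 0.39 in place of 0.09. Of the other plasma protein genes, 7 were higher with at least 10 counts in every library, a filter that leaves out genes silent in 1 group. The 2 lower were 0 with the block in edgeR, 1 with library size without TMM and with no filter, 4 with the block in limma-voom, 5 with the forebrain covariate, 7 with DESeq2 and 9 with limma-voom and without mice 12 and 15. Hepatocyte enzyme genes, 5 higher, were 3 with limma-voom and with the block in edgeR and 1 with at least 10 counts. The 5 lower were 3 with the block in edgeR, 8 with DESeq2 and with the block in limma-voom, and 10 without mice 12 and 15. The 5 lower transcription factors were 2 with library size without TMM, no filter, at least 10 counts, and both blocks.

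Leaving out 1 library at a time gave 1636 to 2534 genes higher and 512 to 1609 lower, 18 to 22 and 1 to 6 other plasma protein genes, 4 to 5 and 0 to 6 hepatocyte enzyme genes, and 5 and 1 to 5 transcription factors. In all, 100 alternative counts were within 1.5 times the count reported and 60 were not, and all 117 alternative fold changes of Afp, Ambp, Alb, Ttr, Apoh and Apoe moved by less than the spread between replicates. The other 4 genes have no fitted fold change. At this depth Ahsg, Fgb and Serpina1c could not be compared.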
